A study of Mus musculus with 4 samples.

Results

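Fragments of 8 collagen genes were examined in small RNA libraries of mouse sperm: the fibrillar chains Col1a1, Col1a2, Col3a1, Col5a1 and Col5a2, and the type VI chains Col6a1, Col6a2 and Col6a3. They were chosen by gene symbol and are 8 of the 16785 genes to which RefSeq transcripts could be assigned, resting on 11 of 68434 RefSeq transcripts. All 8 had signal in all 4 libraries, and all 8 reached the minimum mean of 10 RPM used for the fit. The list was drawn up when a lower collagen level in one of the crosses was already known. The difference between the crosses is therefore described here with no p-value given for these genes, which enter only the fit over all genes tested. No independent support is drawn from that difference.

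Adult C57BL/6 mice gave the sperm, which were taken from the cauda epididymis, where mature sperm are stored. The mice were bred by an extra cross to wildtype (2 mice) or by the original cross (2 mice), with 1 library per mouse. No treatment is named beyond washing the sperm in buffered saline. The labels used here give neither a genotype nor which of the crosses was the one open to silencing of the LoxP site, the short sequence recognised by Cre recombinase that the title of the study names.

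Collagens are secreted proteins whose chains wind into triple helices. Fibrillar collagens assemble into the rope-like fibrils that give connective tissue its strength, and type VI collagen forms a beaded network that links cells to those fibrils. In the epididymis these proteins are made mainly by fibroblasts and smooth muscle of the tissue around the duct. Spermatozoa are not known for making them. The reads described here were assigned by the authors to transcripts and not to a class of small RNA.

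The libraries are given in RPM, reads scaled by the authors to a common total, in 2 tables of 1 library per cross. The value of 1 read placed the totals behind the scale at 1557766 and 4205692 reads in the extra cross and at 632859 and 1782506 reads in the original cross. RefSeq values of original-cross replicate 1 were on a scale 26.2 times lower than its other values and were multiplied by this factor. On the rescaled values, 1014 genes with a single listed transcript sat at 1 read in that library and 218 at 0.5 reads. In the other 3 libraries 1065 to 1183 such genes sat at 1 read and 212 to 233 at 0.5 reads. Transcripts that define the late stages of sperm formation were near the floor. The protamine genes Prm1 and Prm2, whose products package sperm DNA, and the transition protein genes Tnp1 and Tnp2 had between 0 and 2.24 RPM in all libraries. The 15 sperm transcripts found, of 19 listed, summed to 35.0 and 43.3 RPM in the extra cross and to 47.3 and 53.6 RPM in the original cross. Most of that sum was Ubb, a ubiquitin gene used by most cells.

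Summed over the 8 collagen genes, the extra-cross libraries held 1319 and 1561 RPM and the original-cross libraries held 3205 and 3819.5 RPM. Every one of the 8 was lower in both extra-cross libraries than in either original-cross library. Of all 477 RefSeq genes tested 54.1% had this order too, and 4.4% had the opposite order. Within the replicate tables all 8 were lower in both, as were 71.5% of all genes tested, and 0 of the 8 were higher in both, against 9.22% of all genes. The list was drawn up with this contrast known, so nothing is read from these counts. The median log2 fold change (extra cross over original cross, on log2(RPM + 1)) was -1.19 over the 8 collagens and -0.50 over all genes tested. Within the tables of replicates 1 and 2 it was -1.16 and -1.19 for the collagens and -0.62 and -0.37 for all genes. When the libraries were scaled by median ratios, the median of all genes moved to 0.010. The collagen median was then -0.66, and all 8 genes were below 0, as were 232 of all 477 genes tested. With the RefSeq values of original-cross replicate 1 left on their deposited scale all 8 turned positive, with a median of 1.06. The median of the 299 genes tested on that scale was 1.49. In bulk libraries fewer cells of a type and less RNA per cell cannot be told apart.

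**Figure D1:**
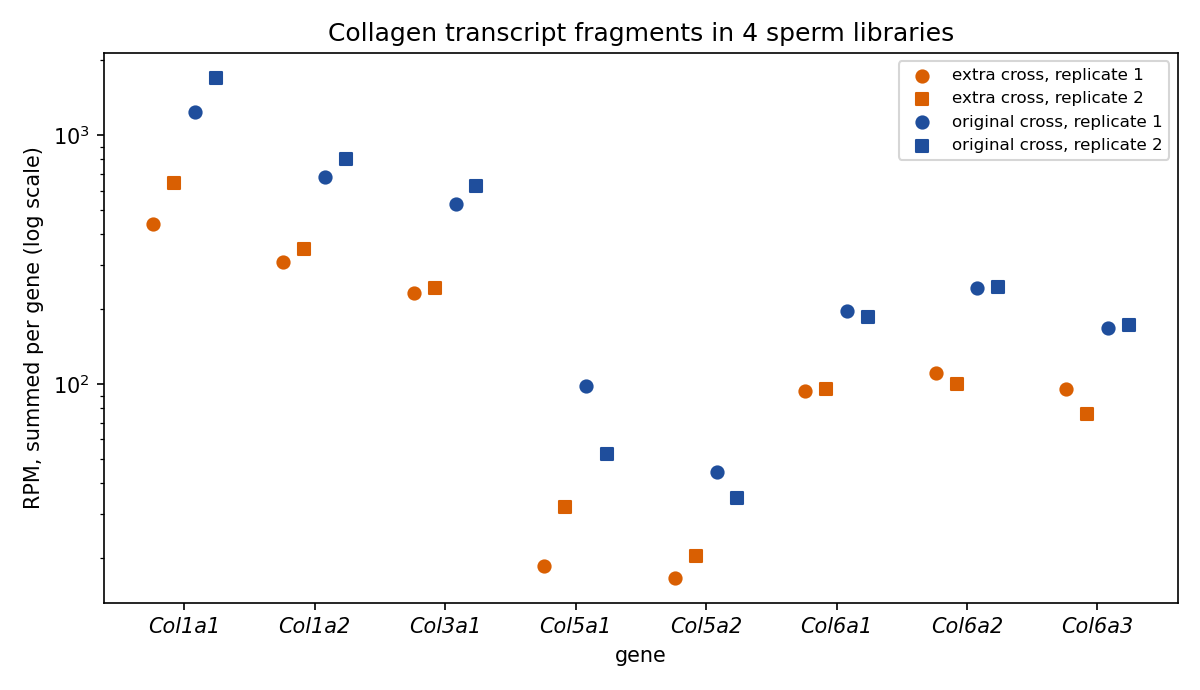
RPM of each collagen gene (log axis, transcripts summed per gene) in each library, with 1 point per mouse. Both extra-cross libraries lie below both original-cross libraries for all 8 genes on the rescaled values, from Col1a1 (439 and 643 against 1244 and 1700.1 RPM) to Col5a2 (16.7 and 20.4 against 44.2 and 34.8 RPM).

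Type I collagen, the main fibril protein of connective tissue, gave most of the signal. Col1a1, its more abundant chain, had 439 and 643 RPM in the extra cross and 1244 and 1700.1 RPM in the original cross. By mean RPM it was the gene of rank 6 among all 16785 genes. Its log2 fold change was -1.45 ± 0.34 (SE), with -1.50 and -1.40 in the tables of replicates 1 and 2. Col1a2, the partner chain in the type I helix, had 311 and 350.5 RPM in the extra cross and 682 and 801 RPM in the original cross. The extra-cross libraries were close to each other and well below the original-cross libraries, with a log2 fold change of -1.16 ± 0.32 (SE). Col1a1 rests on the most reads of the 8 genes, with values worth 684 and 2704 reads in the extra cross and 787 and 3030.5 reads in the original cross.

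Type III collagen, built of the single chain Col3a1, forms thin fibrils together with type I in vessel walls and soft tissue. Col3a1 had 233 and 244 RPM in the extra cross and 531 and 626 RPM in the original cross, a log2 fold change of -1.27 ± 0.32 (SE). The gap between the crosses was larger than the difference between the libraries of either cross. Col3a1 and Col5a2 lie side by side on chromosome 1 (45311538 to 45349706 and 45374331 to 45503282, GRCm38), with 24624 bases between them.

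Type V collagen is a minor fibril component that starts fibril assembly and limits fibril width. Col5a1 had 18.6 and 32.0 RPM in the extra cross and 98.0 and 52.4 RPM in the original cross. It had the lowest log2 fold change of the 8 genes, -1.51 ± 0.41 (SE), and also the widest spread, with -2.33 in replicate 1 and -0.69 in replicate 2. Without original-cross replicate 1 it was -1.07. Col5a2 had 16.7 and 20.4 RPM in the extra cross and 44.2 and 34.8 RPM in the original cross, at -1.05 ± 0.31 (SE). They rest on the fewest reads of the group: extra-cross replicate 1 holds the worth of 29 reads of Col5a1 and 26 of Col5a2, and original-cross replicate 1 of 62 and 28.

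Type VI collagen is assembled from 1 chain each of Col6a1, Col6a2 and Col6a3, and the first 2 lie 85161 bases apart on chromosome 10. Col6a1 had 94.0 and 95.3 RPM in the extra cross and 196 and 186 RPM in the original cross. Col6a2 had 110.4 and 100.1 RPM in the extra cross and 243 and 246 RPM in the original cross. Both were nearly level between the mice of a cross, and their log2 fold changes were -1.0 ± 0.32 and -1.21 ± 0.32 (SE). Col6a3, the largest of the 3 chains, had 95.6 and 75.5 RPM in the extra cross and 167 and 173 RPM in the original cross, at -0.99 ± 0.33 (SE). Col6a2 was listed as 2 transcripts, and the more abundant held 76.4 and 66.3 RPM in the extra cross and 156 and 163 RPM in the original cross. Its share of the gene was larger in all 4 libraries.

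**Figure D2:**
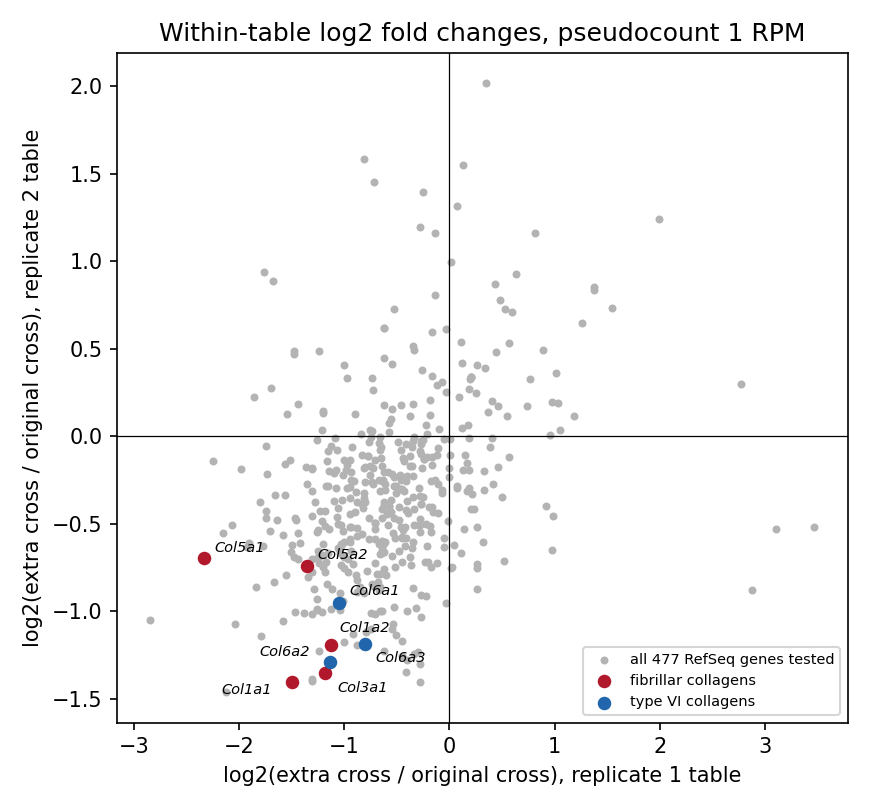
Log2 fold change of the extra cross over the original cross in the replicate 1 table (x axis) and the replicate 2 table (y axis), pseudocount 1 RPM, for 477 RefSeq genes (grey) and the 8 collagens (coloured). All 8 collagens lie below 0 in both tables on the rescaled values, and Col5a1 (-2.33 and -0.69) is farthest from equal values.

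The limma fit over all 477 genes called 0 of them at an adjusted p (Benjamini-Hochberg) of 0.05 (0% lower and 0% higher). The lowest adjusted p over all genes was 0.165. At an unadjusted p of 0.05, 108 genes were lower in the extra cross (22.6%) and 6 were higher (1.26%). The count of calls over all genes depended on single libraries: it was 41 without original-cross replicate 2, 7 without original-cross replicate 1, 2 without extra-cross replicate 1 and 1 without extra-cross replicate 2. As a description of size, 7 of the 8 collagens and 11.1% of all genes tested had a log2 fold change of -1 or lower. Under median-ratio scaling all 8 were above -1, the lowest being Col5a1 at -0.996. Scaled to the RefSeq sum, only Col1a1 (-1.03) and Col5a1 (-1.10) were below -1. The list was drawn up with this contrast known, so nothing is read from the count.

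The share of the RefSeq class taken by the collagens does not depend on the scale of a library. It was 1.00% and 1.15% in the extra cross and 1.54% and 2.46% in the original cross, so the crosses did not overlap, but the 2 original-cross mice differed more from each other than the extra-cross mice did. The class sum itself was 131739 and 136016 RPM in the extra cross and 207665 and 155300 RPM in the original cross, and Rn28s1, a ribosomal RNA gene, was its largest entry. The make-up of the 8 genes was as follows. Type I took 56.9% and 63.6% of their sum in the extra cross and 60.1% and 65.5% in the original cross. Type III took 17.7% and 15.7% against 16.6% and 16.4%, and type V 2.68% and 3.36% against 4.44% and 2.28%. Type VI took 22.8% and 17.4% in the extra cross and 18.9% and 15.8% in the original cross. For each type the ranges of the crosses overlapped.

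**Figure D3:**
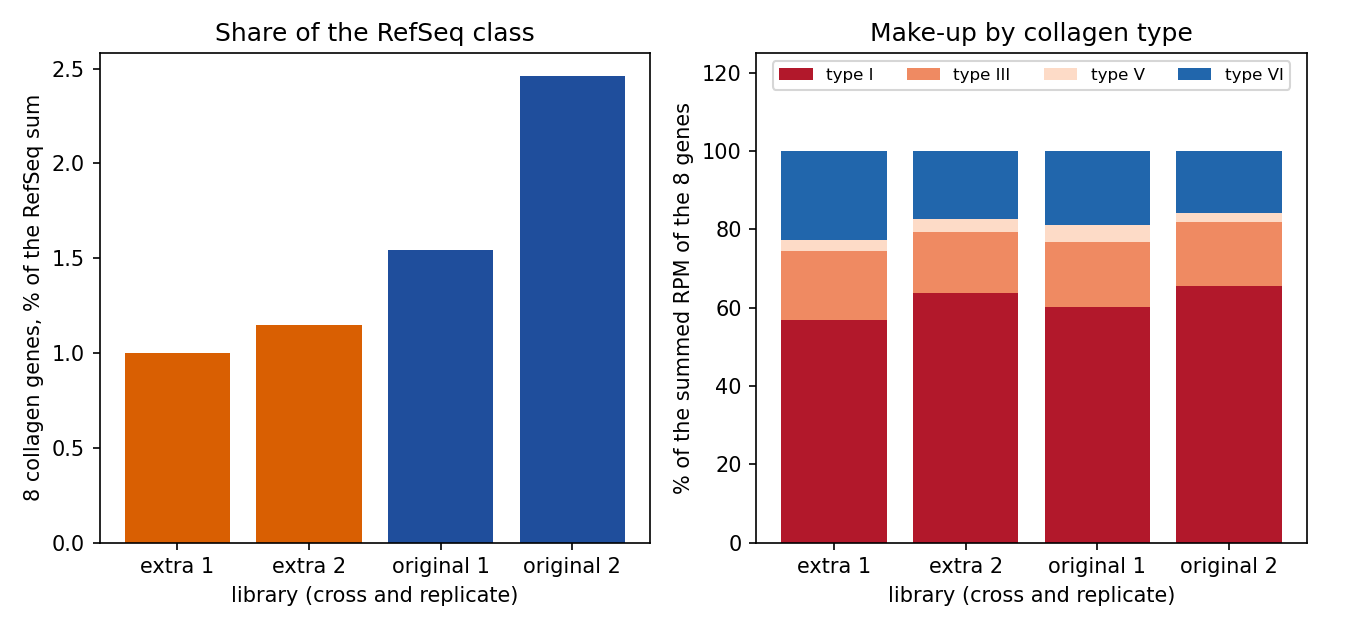
Left, the 8 collagen genes as a percentage of the RefSeq sum of each library, with the extra cross at 1.00% and 1.15% and the original cross at 1.54% and 2.46%. Right, the percentage of their summed RPM that fell to each collagen type, where type I is the largest part in all 4 libraries.

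Elsewhere in the genome (GRCm38) lie Col1a1 on chromosome 11 (94936224 to 94953042), Col1a2 on chromosome 6 (4505618 to 4541543), Col5a1 on chromosome 2 (27886381 to 28039510) and Col6a3 on chromosome 1 (90766860 to 90844001). On chromosome 10 lie Col6a2 (76595756 to 76623630) and Col6a1 (76708792 to 76726044). The values are sums over whole transcripts, so the place of a fragment within its exons is not known. Levels were compared between genes per kb of the longest matched GENCODE transcript, whose lengths run from 4100 to 10106 nt. Averaged over the 4 libraries the order was Col1a1 (169.7 RPM per kb), Col1a2 (100.2), Col3a1 (73.4), Col6a2 (37.6), Col6a1 (34.8), Col6a3 (12.7), Col5a1 (5.98) and Col5a2 (4.38). Each step held in all 4 libraries except those between Col6a2 and Col6a1 and between Col5a1 and Col5a2, whose order changed between libraries. The ratio of Col1a1 to Col1a2 per kb was 1.28 and 1.65 in the extra cross and 1.65 and 1.91 in the original cross. In the type I helix a pair of Col1a1 chains is joined by a single Col1a2 chain. The ratio of Col6a1 to Col6a2 was 0.967 and 1.08 in the extra cross and 0.914 and 0.856 in the original cross. The type VI protein holds equal parts of its chains, but fragments per kb of transcript do not measure protein chains. The ratio of Col6a3 to Col6a1 was 0.413 and 0.321 against 0.347 and 0.378, so Col6a3 gave fewer fragments per kb than its partners in all 4 libraries. Col3a1 to Col1a1 stood at 0.566 and 0.405 against 0.455 and 0.393. Annotated exons of other genes overlap exons of Col3a1 and Col5a1. The longest overlap of a single exon was 141 nt for Gm47302 with Col3a1, on the same strand. It was 99 and 113 nt for 2810430I11Rik and Gm13372 with Col5a1, on the opposite strand. The total overlap was not summed. Whether strand was used in counting is not given in the sources used here.

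**Figure D4:**
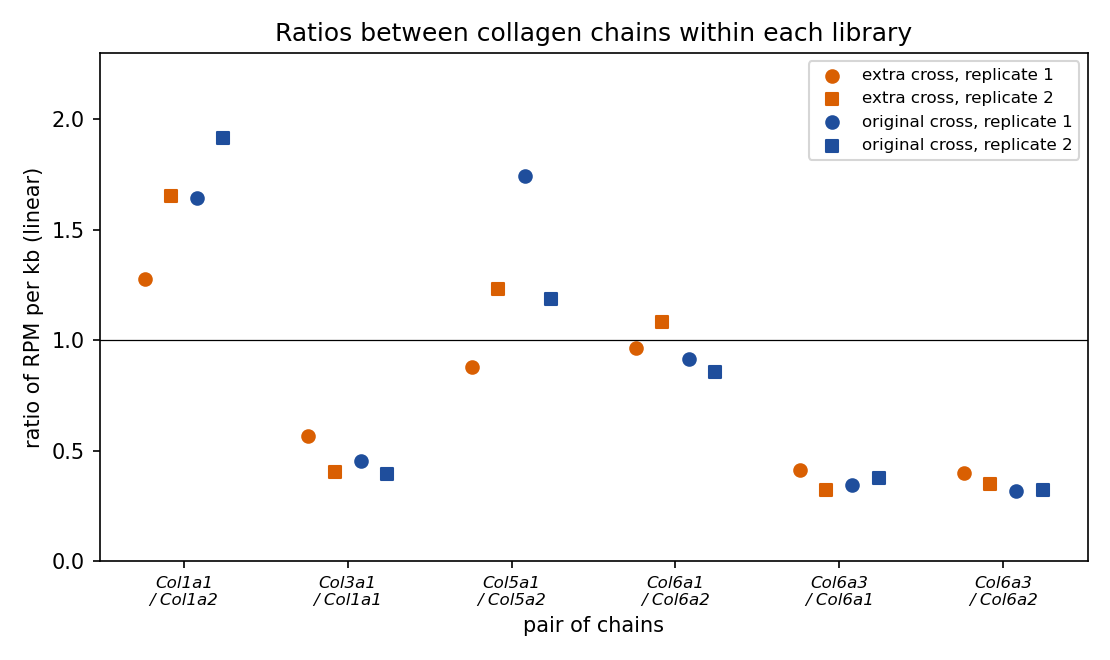
Ratio of RPM per kb (linear axis) between pairs of collagen chains within each library, 1 point per mouse. Col1a1 exceeds Col1a2 in all 4 libraries (1.28 to 1.91), Col6a1 and Col6a2 stay near 1, and Col6a3 stays below both of its partners.

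The spread between mice of the same cross differed by gene. The difference of replicate 2 from replicate 1 had a median of 0.12 (log2) over the 8 genes in the extra cross and of 0.03 in the original cross, where all genes tested had -0.08 and -0.29. Col1a1 was higher in replicate 2 of both crosses, by 0.55 and 0.45. Col5a1 and Col5a2 were higher in replicate 2 of the extra cross (0.75 and 0.28) and lower in replicate 2 of the original cross (-0.89 and -0.34).

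Of 9 other fibrillar and type VI chains, 2 had enough signal to be tested. Col6a5, a chain related to Col6a3, had 98.9 and 107 RPM in the extra cross and 238 and 214 RPM in the original cross. Its crosses did not overlap. Col6a6 had 11.6 and 14.6 RPM in the extra cross and 20.2 and 14.3 RPM in the original cross, so its crosses overlapped, and its log2 fold change of -0.36 was positive under all 3 other scalings (0.14 under median ratios). Col11a1 and Col5a3, the next most abundant, stayed below 10 RPM in all libraries. All 4 tested collagens of the fibril-associated and short-chain kinds were lower in each table, against 71.5% of all genes, at a median of -1.05. Of these, Col12a1, which decorates fibril surfaces, had 27.6 and 32.3 against 50.6 and 59.5 RPM, and Col8a2 and Col16a1 stood at -1.35 and -1.24. Col14a1 stood at -0.65.

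Proteins that make and mature collagen were followed in 2 lists of which few members reached 10 RPM. For folding and modification 2 of 16 were tested, and both were lower in both tables, as were 71.5% of all genes tested. Serpinh1, the collagen chaperone HSP47, had 10.9 and 12.4 RPM in the extra cross and 28.4 and 21.9 RPM in the original cross. P4hb, a subunit of prolyl hydroxylase, had 19.3 and 14.6 against 31.6 and 25.8 RPM. For processing and cross-linking 4 of 12 were tested, all lower in each table, at a median of -0.95. Adamts2, which trims the procollagen ends, had 27.0 and 25.0 against 50.6 and 58.3 RPM. Pcolce, an enhancer of procollagen trimming, had 10.3 and 9.51 against 17.4 and 20.2 RPM. Of the cross-linking enzymes, Lox stood at 11.6 and 10.2 RPM in the extra cross and 19.0 and 19.6 RPM in the original cross, and Loxl1 at -1.12 (log2). These 6 genes kept a negative log2 fold change under all 3 other scalings tried. Of all 477 genes tested, 232 were negative under median ratios and 280 when scaled to the RefSeq sum. Scaled to that sum without the 10 most abundant genes, 275 were negative.

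Other matrix genes were followed in further lists. Of 12 tested fibril-binding proteins 9 were lower in each table, as were 71.5% of all 477 genes tested. The median of the 12 was -0.68, and it was -0.15 under median-ratio scaling. Positive under that scaling were 5 of the 12 and 245 of all 477 genes tested. Sparc, a collagen-binding glycoprotein, had 184 and 202 RPM in the extra cross and 318 and 345 RPM in the original cross. Decorin (Dcn), a small proteoglycan on fibrils, had 104 and 107 against 166 and 127 RPM, and it was above 0 under median-ratio scaling (0.068). Fibronectin (Fn1) and tenascin X (Tnxb) stood at -0.59 and -0.88. The 12 tested basement membrane genes, of the thin sheet under epithelia, include 6 collagens and were all lower in each table, at a median of -0.84. Of these, Hspg2 (perlecan) had 52.6 and 61.9 against 120.1 and 103 RPM, Lamb2 and Nid1 stood at -0.97 and -0.83, and Col4a2 stood at -0.75. Under median-ratio scaling 3 of the 12 were positive, against 245 of all 477 genes tested. The 3 tested degradation genes had a median of -0.50 (0.019 under median-ratio scaling), with Mmp2 at -0.14 (positive under all 3 other scalings), Timp2 at -0.50 and Mrc2 at -0.85. The receptor genes Itgb1 and Ddr2 stood at -0.37 and -0.35 and turned positive under all 3 other scalings. Whether the collagens differ from any of these lists was not tested.

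**Figure D5:**
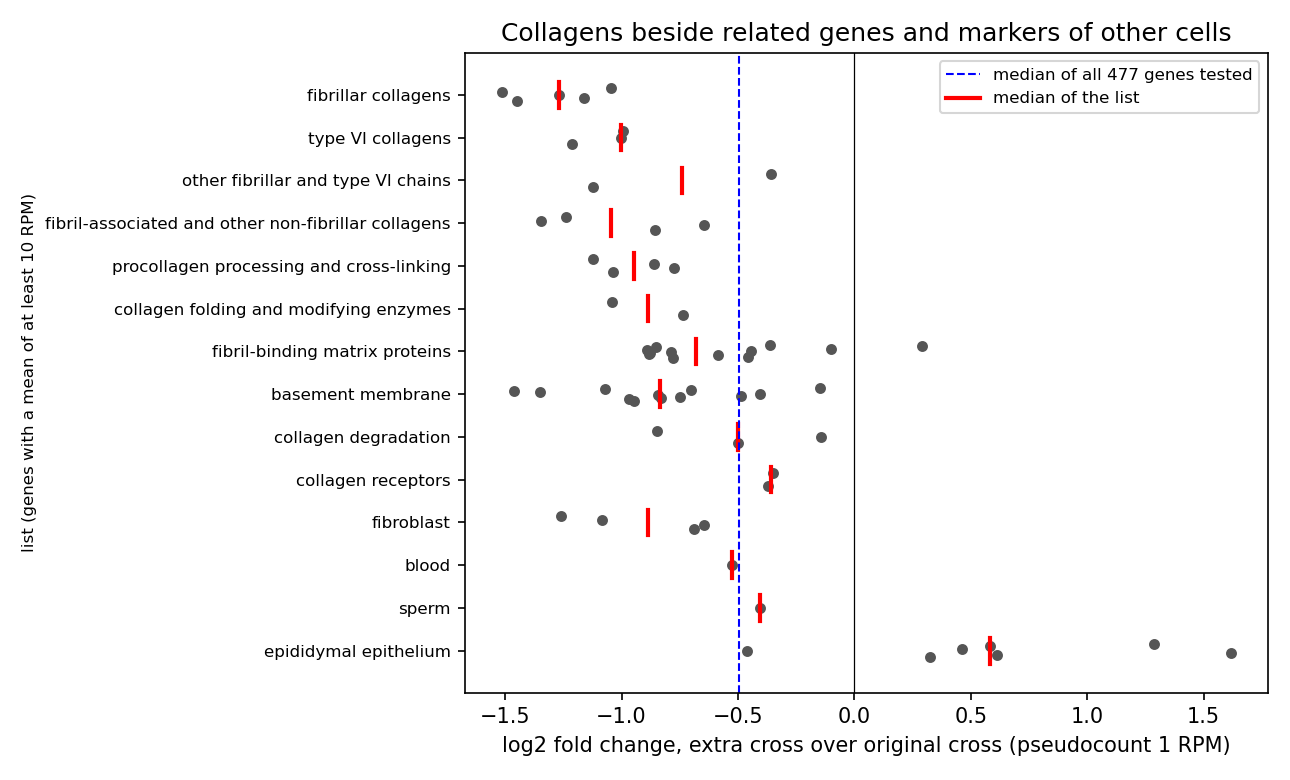
Log2 fold change of the extra cross over the original cross for each gene with a mean of at least 10 RPM (points), by list, with the median of each list (red bar) and of all 477 genes tested (dashed line, -0.50). The fibrillar collagens have a list median of -1.27 and the type VI collagens of -1.0. The epididymal epithelium list has a median on the other side of 0, at 0.58 (0.97 and 0.20 in replicates 1 and 2).

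Markers of other cell types of the epididymis and of blood were summed in the same libraries. The 4 tested fibroblast markers, of 8 listed, were lower in both tables, as were 71.5% of all genes tested. Pdgfra, a receptor of fibroblasts, had 26.3 and 25.0 RPM in the extra cross and 56.9 and 30.9 RPM in the original cross. Vim stood at -0.64, Igf1 at -1.08 and Fbln1 at -1.26. The other 4 were under 10 RPM on average and not tested: Dpt stood at 0.11, S100a6 at 0.070 and Mfap5 at 0.68, on the other side of 0, and Ly6a at -0.83. The summed level of the 8 was 86.4 and 89.6 RPM in the extra cross and 174 and 129 RPM in the original cross. No smooth muscle or endothelial marker reached the minimum. The 10 smooth muscle markers summed to 29.6 and 37.0 against 38.1 and 51.5 RPM, with Mylk, Acta2, Myh11 and Myl9 as the largest, and none was at 0 in all libraries. The 8 endothelial markers, led by Kdr, Eng, Cdh5 and Vwf, summed to 11.1 and 11.6 against 35.6 and 20.9 RPM. The 10 blood markers summed to 69.8 and 43.9 against 111 and 52.7 RPM, mostly Lyz2, and Ptprc, Hbb-bs and Hba-a1 stayed below 5 RPM. In the median, markers of epididymal epithelium went the other way, more so in replicate 1. Of 7 tested, 5 were higher in both tables, against 9.22% of all genes tested, and 1 was lower in each. Their median was 0.58, with 0.97 in replicate 1 and 0.20 in replicate 2, and it stayed positive under the other scalings. Among the members found but not tested, both signs occurred. Lcn5, a secreted lipocalin, had 21.8 and 55.9 RPM in the extra cross and 4.74 and 23.0 RPM in the original cross. Adam7 had 49.4 and 45.1 against 23.7 and 39.3 RPM, Clu had 44.3 and 53.5 against 41.1 and 36.5 RPM, and Spag11b had 21.8 and 17.4 against 25.3 and 29.2 RPM, a log2 fold change of -0.46 that was 0.047 under median-ratio scaling. The summed level of the 15 epididymal transcripts found, of 16 listed, was 236.5 and 258 RPM in the extra cross and 132 and 215 RPM in the original cross. The part of any of these cells in the collagen values was not tested.

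The microRNA class of the same libraries holds hairpins known from stromal cells. Of 7 listed, 6 were found, all lower in the extra cross in replicate 1 and 5 of 6 in replicate 2. Among the 206 hairpins that averaged 10 RPM or more, 23.3% were lower in both tables as deposited and 45.1% after scaling to the microRNA sum. Hairpin mir-199b had 360.3 and 439.6 RPM in the extra cross and 634 and 515 RPM in the original cross. Hairpin mir-214 stood at 38.5 RPM in both extra-cross libraries and at 77.4 and 51.1 RPM in the original-cross ones. Hairpin mir-143 was higher in replicate 2 (0.21), and it was negative there after scaling to the microRNA sum (-0.05). For mir-145a, mir-199a-1 and mir-199a-2 the log2 fold changes were -0.36, -1.52 and -1.52. The values of mir-199a-1 and mir-199a-2 were nearly the same in each library (443.8 and 444.4 RPM in extra-cross replicate 1). The 6 hairpins found therefore do not stand for 6 separate signals.

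The miR-29 family is known as a repressor of collagen messenger RNAs, through matches to its seed in their 3′ untranslated regions. Its mature forms, from RefSeq (GRCm38.p6), are shown because all carry the same seed, bases 2 to 8, in capitals.
miR-29a-3p: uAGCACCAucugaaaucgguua
miR-29b-3p: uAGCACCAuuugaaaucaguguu
miR-29c-3p: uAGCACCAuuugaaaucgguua

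In both tables all 4 hairpins of the family were higher in extra-cross sperm, as were 42.7% of all 206 hairpins. The microRNA class itself summed to 441544 and 140437 RPM in the extra cross and to 275809 and 117322 RPM in the original cross. Scaled to the microRNA sum, the 4 were again higher in both tables, as were 20.9% of all hairpins. That scaling set the family median at 0.78 and 0.89 in replicates 1 and 2, against 1.44 and 1.12 as deposited, and mir-29a in replicate 1 at 0.23, against 0.90. Both microRNA lists were chosen with these values known. For mir-29a the extra-cross libraries held 2826 and 960.4 RPM and the original-cross libraries 1509 and 489.8 RPM. For mir-29c they held 746 and 248 RPM in the extra cross, against 279.7 and 115 RPM in the original cross. The pair mir-29b-1 and mir-29b-2 yields the same mature form and stood at 1.38 and 1.31 (log2).

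Of the 8 collagens, 6 held the seed match TGGTGCT on the transcript strand of their annotated 3′ untranslated region (GENCODE, 732 to 2498 nt), with 9 matches in all, 7 of them followed by an A. Only the transcript strand was searched. Among 8347 genes with a region in the same length range 13.5% held the match. The matches in Col1a1, in Col3a1 and the 4 in Col5a1 are shown, with the match in capitals.
Col1a1, bases 919 to 925 of the region: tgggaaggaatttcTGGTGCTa
Col3a1, bases 235 to 241: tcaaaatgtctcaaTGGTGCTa
Col5a1, bases 988 to 994: taactatgaacattTGGTGCTg
Col5a1, bases 1018 to 1024: acacttgtctcttgTGGTGCTa
Col5a1, bases 1334 to 1340: ttgctgaatgtttgTGGTGCTa
Col5a1, bases 1706 to 1712: acagagagtcactcTGGTGCTt

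Col5a2, Col6a2 and Col6a3 held 1 match each, and Col1a2 and Col6a1 held none in the region searched. Shorter matches to the seed were not searched. The log2 fold changes were -1.16 and -1.0 for the 2 collagens with no match and -1.51 to -0.99 for the 6 with a match. This comparison was not tested. A match is a description of the sequence, and the part of miR-29 in the collagen values was not tested.

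By root mean square difference of centred log2 values over the 4 libraries, 8 genes outside all lists lay nearest to the mean profile of the collagens, among 415 such genes. They were Adamtsl1 (0.043), Macf1 (0.050), Serpinf1 (0.051), Cpxm2 (0.084), Add1 (0.10), Igfbp4 (0.10), Gdf10 (0.11) and Itih5 (0.11), where the median over all genes tested was 0.457. Of these, Itih5 was the most abundant, with 42.5 and 48.0 RPM in the extra cross and 88.5 and 96.5 RPM in the original cross. Serpinf1, a secreted serpin, had 13.5 and 14.1 against 33.2 and 34.2 RPM. The collagens themselves lay between 0.099 (Col1a2) and 0.395 (Col5a1) from their own mean profile. With 4 libraries this order is a description only.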

How the data were processed

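Small RNA of 4 sperm samples was measured, 2 per cross, and per the labels each sample is 1 mouse, extracted with Trizol, size-selected on a gel and sequenced in 1 shared lane after TruSeq small RNA library preparation. The authors deposited RPM values in 2 tables. Per the submitters' processing notes the tools include CASAVA 1.8.2 and Bowtie 1.1.2, and the build is mm10. Of the total behind RPM, the annotation and the handling of multiple matches, nothing is stated in the labels.

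The commonest microRNA value of a library was taken as 1 read, and RefSeq values of original-cross replicate 1 were multiplied by 26.2. In original-cross replicate 1, of the genes whose 2 listed transcripts held equal values 70.5% sat at multiples of 0.5 reads and 22.7% at whole reads (tolerance 0.02 reads, up to 20 reads), so transcripts were summed per gene. Because reads were divided, limma on logs was used in place of a count test. Of 68434 RefSeq transcripts 81.7% matched a symbol. Features missing from a table were given 0.

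Differences were fitted on log2(RPM + 1) with limma 3.58.1 in R 4.3.3 (cross as the only term, variance trend, mean of at least 10 RPM), and the fit was tested on simulated data. Fold changes understate those of low genes. Tables and plots used Python 3.11.15, pandas 2.3.3, numpy 2.4.6 and matplotlib 3.10.9. The members and lists were chosen with earlier results of these data known. The text names all members, up to 4 of the most abundant members of each list, and the 8 nearest profiles. Exceptions, chosen after their values were seen, are Prm1, Prm2, Tnp1 and Tnp2 as defining sperm transcripts and Dpt, S100a6, Mfap5 and Ly6a to complete the fibroblast list. All hairpins found in the microRNA lists are given or counted.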

Additional observations from a re-analysis of the deposited data

How the results depend on the processing

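Most of the 16 alternatives could not turn the sign of a gene whose crosses did not overlap. Changes of filter, replicate block or variance trend leave the fold change as it is. Other pseudocounts, a larger factor or a left-out library cannot turn it either. The other scalings, the lower scale and the choice of transcript could. Of 128 single-gene values of the 8 collagens under these alternatives, 120 stayed negative, a count that was thus largely fixed in advance. The 8 positive ones came from leaving the RefSeq values of original-cross replicate 1 on their lower scale, which gave a median of 1.06 and 0.89 for Col1a1, 1.17 for Col1a2, 1.05 for Col3a1, 0.68 for Col5a1, 0.99 for Col5a2, 1.27 for Col6a1, 1.07 for Col6a2 and 1.26 for Col6a3. The median of the 299 genes tested there was 1.49. The collagen median was -1.69 with the commonest RefSeq value of that library taken as 1 read (factor 52.4), -0.66 under median-ratio scaling, -0.76 and -0.75 scaled to the RefSeq sum with all genes and without the 10 most abundant, and -1.16 with the most abundant transcript standing for its gene. Leaving out a library gave -1.22 to -1.14. Divided by a RefSeq sum without the 10 most abundant genes, the sum of all 8 collagens averaged 1.77% in the extra cross and 3.26% in the original cross. Col1a1 and Col1a2 are among those 10 and stayed in the collagen sum, so these are ratios and not shares. The number of genes passing limma was 0 in the 12 alternatives that kept all libraries (0 to 632 at an unadjusted p under 0.05) and 1 to 41 with a library left out. With a replicate block 0 genes passed (131 at an unadjusted p under 0.05), and the collagen median was -1.19. No label says that a replicate number marks a pair, and deviations of same-numbered libraries correlated at 0.332 over genes. Col5a1 and Col5a2 rest on the fewest reads. Read equivalents cover counting error only. Left-out fits leave 1 library in an arm, which is then assumed to vary like the other cross.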
